A study of Mus musculus with 4 samples.

Results

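Transcripts of 10 genes of vascular mural cells, the pericytes and smooth muscle cells that wrap blood vessels, were followed in cells isolated from NB9464 tumors. The genes were *Acta2*, *Tagln*, *Myh11*, *Cnn1*, *Des*, *Rgs5*, *Cspg4*, *Notch3*, *Mcam* and *Myocd*, chosen by name and found by their Ensembl identifiers among the 54532 genes of the table, where each had 1 row. NB9464 is a murine neuroblastoma line driven by *MYCN*. On day 40 after these cells had been implanted under the skin of C57BL/6 mice, tumor-associated macrophages (TAMs) were pulled from the tumors with magnetic beads against CD11b and F4/80, surface proteins of myeloid cells and macrophages, and polyA-selected RNA was sequenced. The title of the series also names an adoptive transfer experiment, in which macrophages and tumor cells are injected together, and the sample labels do not say that these libraries came from it. Which mice or macrophages the genotype label refers to was therefore taken from the protocol fields. The mice were untreated and belonged to a floxed *Syk* strain crossed with Cre recombinase driven by lysozyme M, which removes *Syk* from myeloid cells and leaves mural cells with their own *Syk*. Libraries M7 and M8 were labelled SYK WT and libraries M9 and M10 were labelled SYK KO (n = 2 each). Nothing in the labels says that the libraries of a genotype came from separate mice, so p-values measure the spread between these libraries, which may be technical.

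Pericytes sit on capillaries and smooth muscle cells on larger vessels. Smooth muscle cells contract through smooth muscle actin and myosin, whose genes are switched on by serum response factor (SRF) and its partner myocardin at CArG boxes, short DNA elements with an A/T-rich centre. In tumors, pericytes are often sparse and loosely attached, and *Acta2* and *Tagln* are also made by activated fibroblasts. Macrophages are not a usual source of most of these 10 transcripts.

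The deleted gene went against the labels. *Syk* was measured at 27.9 and 23.2 CPM (counts scaled by library total, with TMM normalization) in the SYK WT libraries and at 196 and 160 CPM in the SYK KO libraries. It was higher in the latter by 2.80 on the log2 scale (standard error 0.194, adjusted p = 0.000674, edgeR's quasi-likelihood test). The floxed exons cannot be told from the other exons in these counts. The direction for *Syk* turned when libraries were scaled to macrophage or pan-leukocyte genes. Those scalings moved the median log2 fold change of all genes by -2.97 and -3.61. Every direction below is therefore for the libraries as labelled. Total counts lay between 20755886 and 23518045 per library, where 3 counts, the smallest signal taken as detectable, equalled 0.109 to 0.163 CPM. This floor covers counting error only. Macrophage markers stood far apart between genotypes. The 10 markers summed to 591 and 402 CPM in the SYK WT libraries and to 4868 and 3186 CPM in the SYK KO libraries. The sum of the 8 fibroblast markers, most of it *Col1a1* and *Col3a1*, went the other way, with 12361 and 14247 CPM against 3999 and 4876 CPM. Mitochondrial genes took 2.20% and 2.34% of the SYK WT counts but 6.00% and 15.9% of the SYK KO counts. The part of these differences in the results on mural genes was not tested. In bulk RNA of this kind, fewer mural cells and less mural RNA per cell cannot be told apart.

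Transcripts of 9 of the 10 genes were counted in every library, and most of the 9 fell in the SYK KO libraries. Of the 10 genes, 9 passed the expression filter, and 6 of these 9 were lower with an adjusted p under 0.05 by edgeR's quasi-likelihood test (*Rgs5*, *Myh11*, *Tagln*, *Acta2*, *Notch3* and *Mcam*). Among all 16451 genes tested, 16.7% were lower and 22.7% were higher by the same call. None of the 9 was higher, 0 were higher at an unadjusted p under 0.05 in edgeR, and DESeq2's Wald test also gave 6 lower and 0 higher. In 7 of the 9, both SYK KO libraries lay below both SYK WT libraries, which held for 37.2% of all genes tested. The median log2 fold change of the 9 genes was -1.45, beside 0.02 for all genes tested. The count of 6 held with either SYK WT library left out and without M9, and became 7 without M10, when *Cspg4* joined. Scaled to the 8 fibroblast markers, of which 5 also fell, 3 of the 9 were lower, beside 3.28% of all genes tested.

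**Figure D1:**
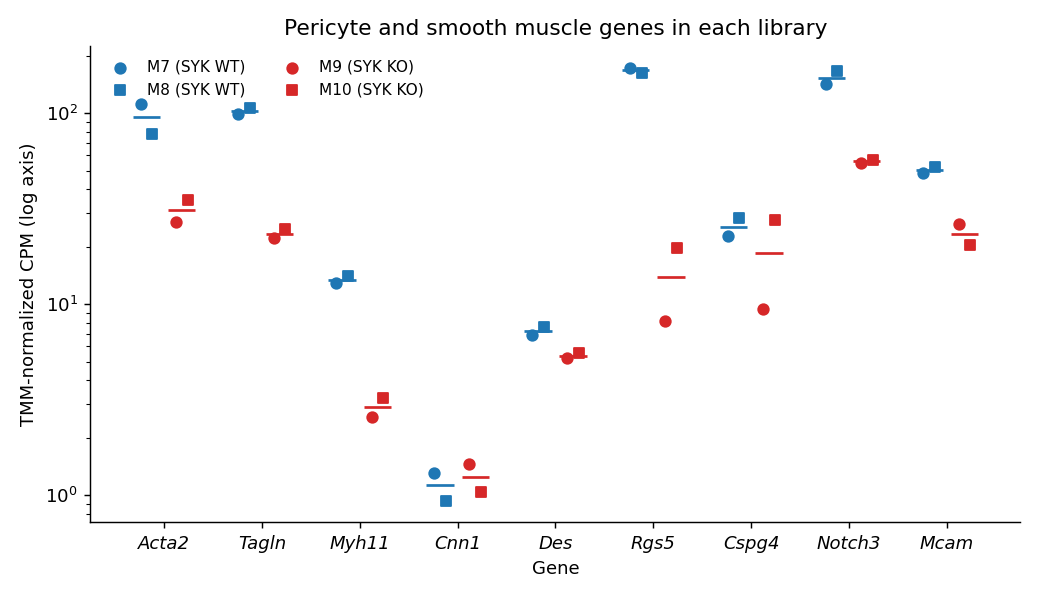
TMM-normalized CPM (log axis) of 9 pericyte and smooth muscle genes in the 4 libraries, with a point for each library and a line at the mean of each genotype. *Myocd*, with 0 to 2 counts per library, is not drawn. The SYK KO points lie below the SYK WT points for *Acta2*, *Tagln*, *Myh11*, *Des*, *Rgs5*, *Notch3* and *Mcam*, and overlap them for *Cnn1* and *Cspg4*.

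Levels of different genes were compared as CPM per kilobase of exon. In the SYK WT libraries *Tagln* came first with 51.7 ± 3.0 CPM per kilobase (SD, n = 2). *Acta2* followed with 43.2 ± 10.9 and *Rgs5* with 37.0 ± 1.57, and the libraries of these neighbours overlapped in both steps. *Notch3* (19.0 ± 2.04) and *Mcam* (15.0 ± 0.720) were next and did not overlap each other. *Cspg4* (2.13 ± 0.316), *Des* (1.93 ± 0.121) and *Myh11* (1.77 ± 0.108) formed a lower tier, in which *Cspg4* overlapped *Des*. *Cnn1* stood at 0.411 ± 0.0973, and *Myocd* was last at 0.012.

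The order changed in the SYK KO libraries. *Acta2* (14.1 ± 2.59 CPM per kilobase) and *Tagln* (11.8 ± 0.832) led and overlapped. *Mcam* (6.98 ± 1.25) and *Notch3* (6.92 ± 0.174) overlapped as well. *Rgs5*, in the third place in the SYK WT libraries, dropped to the fifth place at 3.06 ± 1.79, where it overlapped *Cspg4* (1.55 ± 1.07), which in turn overlapped *Des* (1.43 ± 0.0684). *Cnn1* (0.455 ± 0.109) and *Myh11* (0.381 ± 0.0597) overlapped at the bottom, above *Myocd* at 0 counts.

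*Acta2* (chromosome 19, 34241090 to 34255590, positions on GRCm38) encodes smooth muscle alpha-actin. It was measured at 112 and 78.0 CPM in the SYK WT libraries and at 26.9 and 34.9 CPM in the SYK KO libraries, which did not overlap. The fall was 3.07-fold (log2 fold change -1.62, standard error 0.236, adjusted p = 0.00396). *Tagln* (chromosome 9, 45929619 to 45936058), the actin-binding protein transgelin or SM22 alpha, gave 98.5 and 107 CPM against 22.2 and 24.6 CPM. Each pair was tight and the genotypes were well separated. *Tagln* fell 4.39-fold (log2 fold change -2.13, standard error 0.160, adjusted p = 0.000729), and leaving out any library kept the log2 fold change between -2.19 and -2.08.

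*Myh11* (chromosome 16, 14194535 to 14291372) encodes smooth muscle myosin heavy chain, the most restricted contractile marker of the group. It had 352 and 344 counts in the SYK WT libraries and 53 and 59 counts in the SYK KO libraries, equal to 12.8 and 14.0 CPM against 2.57 and 3.21 CPM. The groups did not overlap, and the fall was 4.63-fold (log2 fold change -2.21, standard error 0.291, adjusted p = 0.00289). *Cnn1* (chromosome 9, 22099216 to 22109630), the actin-binding protein calponin, did not pass the test. Its counts were 36 and 23 in the SYK WT libraries and 30 and 19 in the SYK KO libraries, and the 2 genotypes overlapped. The difference, 0.15 on the log2 scale (standard error 0.590, adjusted p = 0.863), carried an error too wide to place it, and its sign turned with M8 or M9 left out and under 3 of the other scalings.

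CArG elements were looked for in the RefSeq promoter table (GRCm38.p6), which holds 250 bases before and 50 bases after each listed start, and 7 of the 10 genes had an entry. *Tagln*, *Myh11* and *Myocd* had none. The search was for CCNNNNNNGG on either strand, a pattern that reads alike on both, in which the 6 central letters were A or T (CArG box) or at most 1 of them was C or G (CArG-like element). *Acta2* alone among the 7 held the CArG-like form, at 2 places, and none of the 7 held the strict form. Of all 32851 windows in the table, 9.98% held the CArG-like form and 1.63% the strict form. Both *Acta2* elements are printed because it is the contractile gene on which the fold changes below are compared. *Myl9*, the regulatory light chain of smooth muscle myosin, is shown beside it as a partner in the contractile apparatus with elements at 2 places, and *Rgs5* as the gene that changed most. Capitals mark the element, and sequences run 5′ to 3′ on the strand of the gene.
Acta2, 84 bases before the start, chr19:34255438-34255467, minus strand: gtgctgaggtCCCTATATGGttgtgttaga
Acta2, 34 bases before the start, chr19:34255388-34255417, minus strand: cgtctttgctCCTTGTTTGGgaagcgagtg
Myl9, 161 bases before the start, chr2:156775293-156775322, plus strand: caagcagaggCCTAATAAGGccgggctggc
Myl9, 99 bases before the start, chr2:156775355-156775384, plus strand: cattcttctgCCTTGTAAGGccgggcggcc
Rgs5, the 100 bases before the start, chr1:169655401-169655500, plus strand, no element: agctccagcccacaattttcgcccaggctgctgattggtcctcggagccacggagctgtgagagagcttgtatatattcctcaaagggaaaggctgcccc
In GENCODE the *Acta2* gene starts further upstream, at position 34255590, so the 2 *Acta2* elements lie inside its annotated bounds. *Acta2*, with CArG-like elements, and *Rgs5*, with none in its window, both fell, as did *Notch3* and *Mcam*, also without one. *Cnn1*, *Des* and *Cspg4* held none either. A match of letters is a description of the sequence and no measure of binding. Whether the elements bear on the falls was not tested, and *Tagln* and *Myh11*, which also fell, could not be searched.

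*Des* (chromosome 1, 75360329 to 75368579) encodes desmin, the intermediate filament of muscle cells that is also used as a pericyte marker. It gave 6.93 and 7.57 CPM in the SYK WT libraries and 5.19 and 5.56 CPM in the SYK KO libraries. The SYK KO libraries were both below the SYK WT libraries, but the difference did not pass the test (log2 fold change -0.43, standard error 0.298, adjusted p = 0.288). Scaled by library size alone it did, at -0.97 (adjusted p = 0.0404). *Myocd* (chromosome 11, 65176561 to 65269989), which encodes the coactivator myocardin, had 2 counts in each SYK WT library and 0 in each SYK KO library. All 4 values were at or under the 3-count floor, so no fold is given and a difference was not detectable at this depth.

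*Rgs5* (chromosome 1, 169655501 to 169695813) encodes a regulator of G-protein signalling that is a standard marker of pericytes. It had 4747 counts in M7 and 4005 in M8, the SYK WT libraries. In the SYK KO libraries it had 168 counts in M9 and 361 in M10. These equal 173 and 163 CPM against 8.16 and 19.7 CPM, and the SYK KO libraries differed from each other by more than the SYK WT libraries did. *Rgs5* fell 12.1-fold, more than any other of the 9 genes tested (log2 fold change -3.60, standard error 0.402, adjusted p = 0.00180). Without M10 the log2 fold change was -4.35 and without M9 it was -3.18, a range that left it below the values of the other 8 genes.

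*Notch3* (chromosome 17, 32120820 to 32166852), the Notch receptor of smooth muscle cells and pericytes, was measured at 142 and 165 CPM in the SYK WT libraries and at 55.0 and 57.0 CPM in the SYK KO libraries. The groups were apart, and *Notch3* fell 2.74-fold (log2 fold change -1.45, standard error 0.161, adjusted p = 0.00177). *Mcam* (chromosome 9, 44134469 to 44142727), the adhesion molecule CD146 of pericytes and endothelial cells, gave 48.6 and 52.0 CPM against 26.4 and 20.4 CPM. It fell 2.15-fold, the least of the 6 genes that passed the test (log2 fold change -1.10, standard error 0.187, adjusted p = 0.00626).

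*Cspg4* (chromosome 9, 56865033 to 56899870) encodes the proteoglycan NG2, made by pericytes and also by glial progenitors and some tumor cells. Its levels were 22.8 and 28.1 CPM in the SYK WT libraries, 9.47 CPM in M9 and 27.5 CPM in M10. M10 lay within the SYK WT range and M9 far below it. The difference did not pass the test (log2 fold change -0.46, standard error 0.459, adjusted p = 0.455). The log2 value was -1.41 (adjusted p = 2.82e-05) without M10 and 0.03 (adjusted p = 0.927) without M9, so which SYK KO library was kept decided the call.

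**Figure D2:**
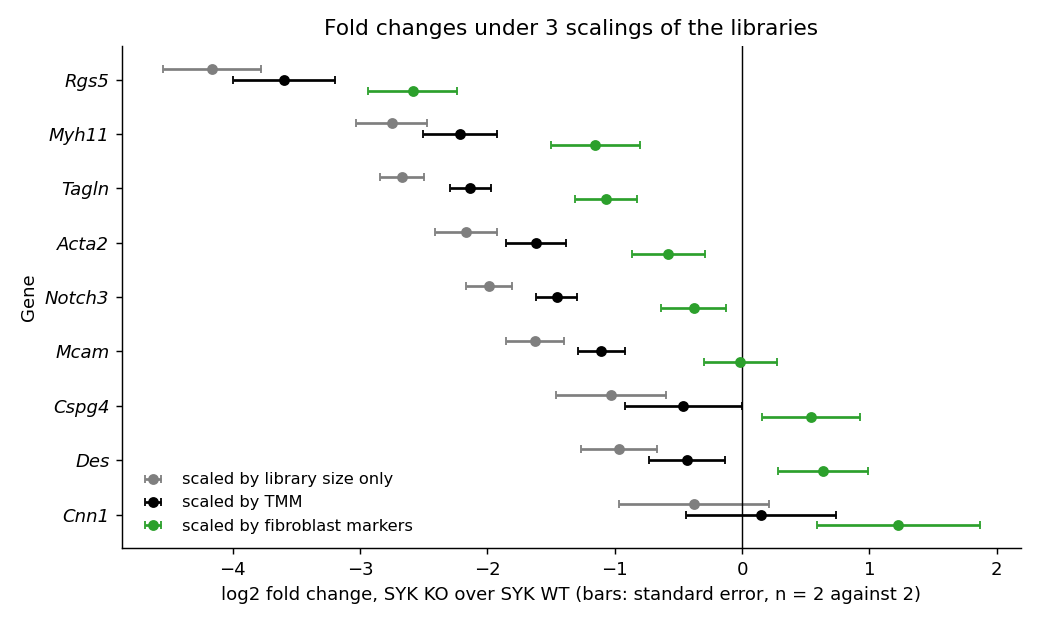
Log2 fold change (SYK KO over SYK WT) with its standard error for 9 genes, with libraries scaled by library size only (grey), by TMM (black) or by 8 fibroblast markers (green). The 9 genes came in the same order under these 3 scalings, with *Rgs5* farthest to the left, while the position of zero moved, and under fibroblast scaling *Des*, *Cspg4* and *Cnn1* lay to the right of it.

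The size of the differences and several calls depended on what the genes were measured against, while the 6 genes lower under TMM stayed negative under every scaling tried. When libraries were scaled to the 8 fibroblast markers, the median of all genes shifted up by 1.07 on the log2 scale, 3.28% of the genes tested were lower and 55.4% were higher. *Rgs5* (-2.59, adjusted p = 0.000541), *Tagln* (-1.07, adjusted p = 0.00495) and *Myh11* (-1.15, adjusted p = 0.0189) were still lower by edgeR's quasi-likelihood test. *Acta2* (-0.58, adjusted p = 0.110), *Notch3* (-0.38, adjusted p = 0.226) and *Mcam* (-0.01, adjusted p = 0.973) no longer passed. *Des* (0.64), *Cspg4* (0.54) and *Cnn1* (1.23) had positive log2 fold changes that did not pass. Scaled to 10 macrophage or 6 pan-leukocyte genes, all 9 genes were lower, as were 14529 and 15270 of the 16451 genes tested.

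Ratios within a library do not depend on scaling. Per kilobase, the 10 genes together made up 11.4% and 9.30% of the summed fibroblast markers in the SYK WT libraries and 8.47% and 7.94% in the SYK KO libraries, so the genotypes lay close but did not overlap. Most of that fibroblast sum came from *Col1a1* and *Col3a1*, at 937 and 676 CPM per kilobase in SYK WT and 327 and 209 in SYK KO. No other fibroblast marker was above 16.8 in either genotype, so this ratio is mainly one to these collagen genes. The mean log2 ratio to the fibroblast sum was lower by 0.33, against an SD between libraries of 0.20 in SYK WT and 0.07 in SYK KO. Taken instead as the median of the genes' log2 levels, the ratio to the fibroblast markers differed by 0.02, less than the spread between libraries. Against the summed endothelial markers, the same 10 genes stood at 445% and 422% in the SYK WT libraries and at 148% and 200% in the SYK KO libraries. As the median of log2 levels this ratio was 130% and 153% against 77.1% and 186%, and the genotypes overlapped. Summed against the macrophage markers they stood at 54.6% and 76.1%, and at 1.44% and 2.55%. No test was run on these ratios. The smallest p that exact permutation allows with 2 libraries per genotype is 0.333 (two-sided).

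**Figure D3:**
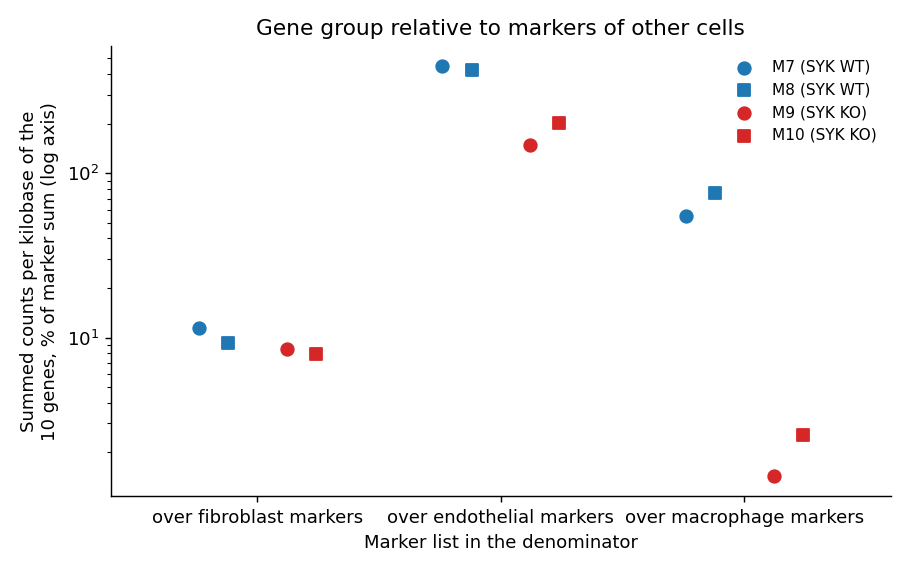
Summed counts per kilobase of the 10 genes as a percentage of the summed counts per kilobase of 8 fibroblast, 8 endothelial and 10 macrophage markers in each library (log axis, no error bars since each point is a library). The genotypes lay within a narrow band for the fibroblast markers (7.94% to 11.4%) and far apart for the macrophage markers (1.44% to 76.1%). Most of the fibroblast sum was *Col1a1* and *Col3a1*.

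The make-up of the group also differed between genotypes. *Rgs5* took 21.6% and 21.4% of the 10 genes' summed counts per kilobase in the SYK WT libraries, and 4.18% and 8.60% in the SYK KO libraries. *Mcam* took 8.22% and 9.27% against 18.3% and 12.1%, and *Des* took 1.05% and 1.20% against 3.22% and 2.94%. *Acta2* overlapped between genotypes, with 28.9% and 21.2% against 28.5% and 31.6%. The ratio of *Rgs5* to *Acta2* per kilobase, a pericyte marker over a contractile gene, was 0.747 and 1.01 in the SYK WT libraries and 0.146 and 0.272 in the SYK KO libraries. *Rgs5* relative to *Cspg4*, a second pericyte marker, went from 19.9 and 15.2 to 2.3 and 1.9. The ratio of *Myh11* to *Acta2* was 0.0331 and 0.0519 against 0.0276 and 0.0266, closer together and still without overlap.

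**Figure D4:**
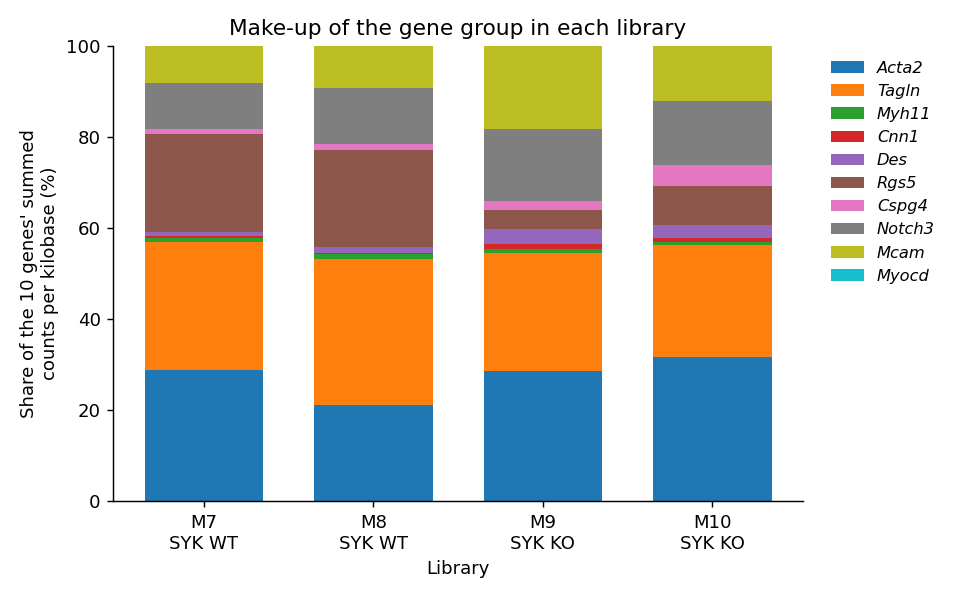
Share (%) of each of the 10 genes in their summed counts per kilobase, as a stacked bar for each library. The *Rgs5* segment shrank from 21.6% and 21.4% in M7 and M8 to 4.18% and 8.60% in M9 and M10, while *Acta2* and *Tagln* together stayed the largest part of every bar.

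Further genes of the smooth muscle apparatus moved the same way. Of 20 other contractile genes, 19 were tested, 12 were lower and 0 were higher by edgeR's quasi-likelihood test, with a median log2 fold change of -1.18. Among all genes tested, 16.7% were lower and 22.7% higher by the same call. At an unadjusted p under 0.05, 14 were lower and 0 higher, and DESeq2's Wald test gave 13 lower and 0 higher. With M7 or M8 left out far fewer passed, as among all genes, and the median was -1.27 or -1.02. Under fibroblast scaling none of the 19 passed in either direction, with 1 lower and 0 higher at an unadjusted p under 0.05. That scaling gave 3.28% lower and 55.4% higher of all genes tested, by adjusted p. *Csrp1*, a LIM protein and the most abundant per kilobase, fell by 0.68 (log2, adjusted p = 0.0199). *Cald1*, the actin regulator caldesmon, fell by 1.79 (adjusted p = 0.00107), and *Lmod1*, a nucleator of actin filaments in smooth muscle, fell by 2.15 (adjusted p = 0.0395). *Ldb3*, a Z-disc protein of striated muscle, had 39 and 33 counts against 5 and 0 (log2 fold change -3.41, adjusted p = 0.0483). *Myl9*, whose elements are printed above, had 18.6 and 20.4 CPM against 4.76 and 10.7 CPM, and its fall was 1.34 on the log2 scale (adjusted p = 0.0348). Of the 21 promoter windows found for 18 of these 20 genes, 5 held a CArG-like element, 4 of them in the strict form (1.63% of all windows), and 2 of the 5 are overlapping windows of *Ldb3* with the same element.

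Among 8 transcription regulators of smooth muscle genes, 2 were lower and 1 was higher, with a median of -0.25, beside 16.7% lower and 22.7% higher of all genes tested. *Prrx1*, a homeobox gene of mesenchymal cells, fell by 1.91 (log2, adjusted p = 0.00152), and *Fhl2*, a LIM cofactor, fell by 1.18 (adjusted p = 0.00358). *Srf* itself rose, with 49.2 and 50.6 CPM in the SYK WT libraries and 67.5 and 87.5 CPM in the SYK KO libraries (log2 fold change 0.64, adjusted p = 0.0321). This call was lost with either M7 or M8 left out, without mitochondrial and rRNA-like genes and under library size only (0.09, adjusted p = 0.693). The sign for *Srf* was negative under macrophage scaling (-2.31) and under leukocyte scaling (-2.96), which moved the median of all genes by -2.97 and -3.61. Which cells made the *Srf* transcripts cannot be told in bulk RNA. *Klf4*, a factor that represses contractile genes and is also made by macrophages, had a log2 fold change of 0.01 (adjusted p = 0.981).

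Other pericyte genes were divided. Of 18 tested, 8 were lower and 2 were higher, with a median of -1.32, beside 16.7% lower and 22.7% higher of all genes tested. With M7 or M8 left out fewer were lower, as among all genes, and the median was -1.35 or -1.38. Without M10 more were lower, again as among all genes, and the median was -1.92. *Gucy1a1*, a subunit of the nitric oxide receptor, had 116 and 92 counts in the SYK WT libraries and 1 and 10 in the SYK KO libraries (log2 fold change -3.76, adjusted p = 0.0185). *Heyl*, a transcription factor and Notch target in mural cells, fell by 2.65 (adjusted p = 0.0108). *Ebf2*, a transcription factor gene, had 26 and 20 counts against 0 and 0, which is at least 5.70-fold lower against a floor of 3 counts in each library. The 2 higher genes were *Cox4i2* and *Anpep*. *Cox4i2* had 0.766 and 0.814 CPM against 4.32 and 2.72 CPM (log2 fold change 2.15, adjusted p = 0.0199). It still passed under library size only (1.64, adjusted p = 0.0484), but not with either M7 or M8 left out. *Anpep*, the most abundant per kilobase, rose, with 111 and 126 CPM against 267 and 243 CPM (log2 fold change 1.10, adjusted p = 0.00442). *Anpep* encodes CD13, which myeloid cells also make. Under library size only *Anpep* no longer passed (0.57, adjusted p = 0.0540). Its sign was negative under macrophage scaling (-1.91) and leukocyte scaling (-2.54), which moved the median of all genes by -2.97 and -3.61.

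Other genes of the Notch pathway were followed in the same libraries. Which cells their transcripts came from cannot be told in bulk RNA, and macrophage markers were higher in the SYK KO libraries. Of 11 Notch ligands, receptors and targets tested, 1 was lower and 2 were higher, with a median of 0.21, beside the same 16.7% and 22.7% of all genes. The target gene *Nrarp* fell by 1.24 (log2, adjusted p = 0.0364). The receptor gene *Notch1* and *Rbpj*, the DNA-binding partner of Notch, each rose by 0.94 (adjusted p = 0.0211 and 0.0134). Under library size only neither passed (0.42 for each, adjusted p = 0.244 and 0.203). Both turned negative under macrophage (-2.08 and -2.07) and leukocyte scaling (-2.71 for each). Those 2 scalings moved the median of all genes by -2.97 and -3.61. Over these 4 lists, 23 of 56 genes were lower and 5 were higher. With either M7 or M8 left out, fewer were called in both directions, as among all genes tested. Of the genes named here from these lists, *Csrp1*, *Lmod1*, *Ldb3*, *Myl9*, *Srf*, *Gucy1a1*, *Heyl*, *Ebf2*, *Nrarp*, *Notch1* and *Rbpj* kept their sign but no longer passed with either M7 or M8 left out. Scaled to fibroblast markers, 5 were lower and 15 higher, namely 1 and 5 of the regulators, 4 and 3 of the pericyte genes, 0 and 7 of the Notch genes and none of the contractile genes. Of all genes tested, 3.28% were lower and 55.4% higher under that scaling.

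**Figure D5:**
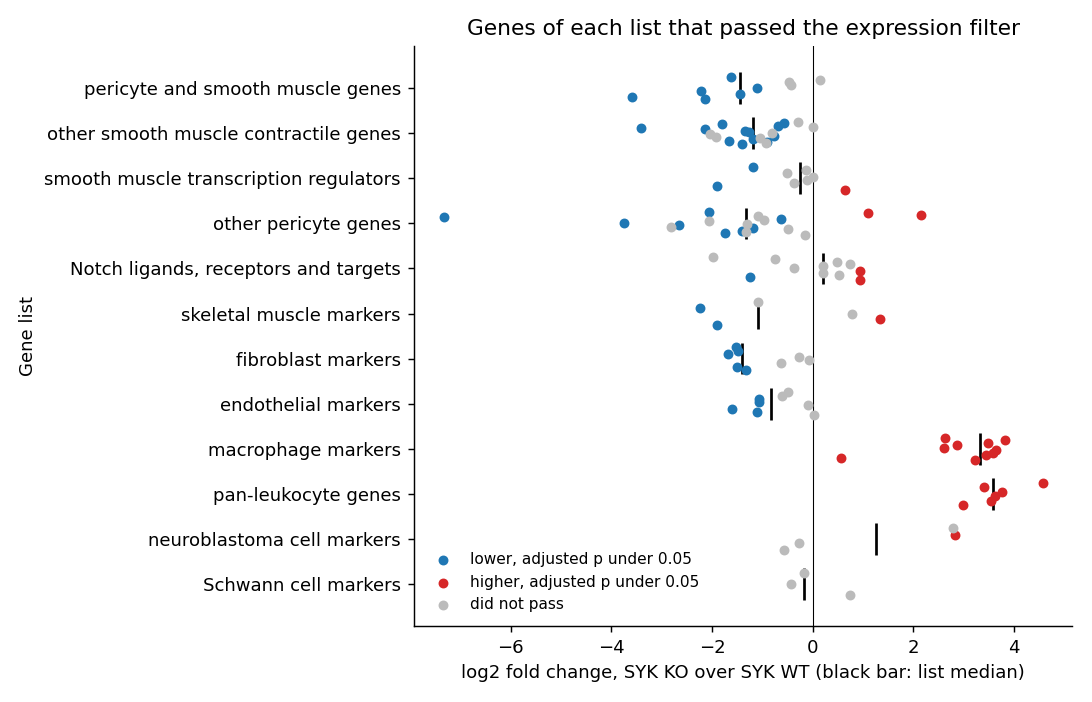
Log2 fold change (SYK KO over SYK WT) of each gene that passed the expression filter, by list, with a black bar at the list median. Blue points were lower and red points higher at an adjusted p under 0.05 and grey points did not pass. Points are fitted values and not bounds, also for *Ebf2* (-7.33, 0 counts in each SYK KO library) and *Dll1* (-1.98, 3 counts in each). The lists of mural and fibroblast genes lie mostly left of zero, and those of macrophage and pan-leukocyte genes lie right of it, with medians of 3.33 and 3.57.

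Markers of the other cells in a tumor gave the setting for these values, with 16.7% lower and 22.7% higher among all genes tested. Of 8 fibroblast markers, 5 were lower and 0 were higher (also 0 at an unadjusted p under 0.05 in edgeR and by DESeq2), with a median of -1.40, beside the -1.45 of the mural genes. *Col1a1* fell by 1.52 (log2, adjusted p = 0.0101), *Col3a1* by 1.69 (adjusted p = 0.00525), and *Pdgfra* was lower too (adjusted p = 0.00213). The 3 that did not pass were *Fap* (-0.07, adjusted p = 0.874), *Dcn* (-0.28, adjusted p = 0.503) and *Lum* (-0.63, adjusted p = 0.115). Of 8 endothelial markers, 4 were lower and 4 did not pass (median -0.84). Under library size only 7 were lower, as were 5411 of the 16451 genes tested. With M7 or M8 left out fewer passed, as among all genes, and the median was -0.82 or -0.89. Lower were the receptor genes *Tek*, *Tie1* and *Kdr*, among others, with log2 fold changes of -1.60, -1.11 and -1.07. *Tek* and *Tie1* no longer passed without M7 or without M8. *Pecam1* had -0.09 (adjusted p = 0.665). All 10 macrophage markers and all 6 pan-leukocyte genes were higher, with *Fcer1g* at 3.64 and *Laptm5* at 3.62. Scaled to the macrophage markers themselves, 1 of the macrophage markers was lower and 0 were higher, and scaled to the pan-leukocyte genes 3 were lower and 0 were higher. The count under macrophage scaling shows nothing of its own, since that scaling levels the mean of these same markers between libraries. Markers of skeletal muscle, which shares *Des* with mural cells, were low. *Myh4*, *Myog* and *Myod1* were at 0 counts in every library, the 10 markers summed to 11.3, 13.2, 12.3 and 20.8 CPM in M7 to M10, and of 5 tested 2 were lower and 1 was higher. The neuroblastoma genes *Th* and *Dbh* were at 0 counts in every library, and the list summed to 263, 303, 182 and 290 CPM, nearly all of it *Hand2*, with 1 of 4 tested higher (*Gata3*). The 3 tested of 6 Schwann cell markers gave 0 lower and 0 higher by edgeR's quasi-likelihood test, also at an unadjusted p under 0.05 and by DESeq2.

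The genes whose levels ran most like *Acta2* and *Rgs5* over the 4 libraries were found among 10031 genes with a mean of at least 10 CPM, by the distance between centred log2 levels. Nearest to *Acta2* were the collagen genes *Col1a2* (distance 0.159) and *Col4a5* (0.213), with the neuronal ubiquitin hydrolase *Uchl1* (0.208) between them. Nearest to *Rgs5* were the dipeptidase gene *Dpep1* (0.535), the microfibril gene *Fbn1* (0.549) and the kinesin gene *Kifc2* (0.581). *Fbn1* had 41.2 and 37.1 CPM in the SYK WT libraries and 2.38 and 7.25 CPM in the SYK KO libraries. These are descriptions over 4 libraries and carry no test.

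Several of the genes share exon bases with transcripts of the opposite strand, and the sources used here do not state whether counting used strand, so reads there cannot be told apart. *Tagln* shares 1241 bases with *Gm48529*, with 71, 49, 29 and 22 counts over M7 to M10, and 108 bases with *Pcsk7* (902, 888, 589 and 535 counts). *Notch3* shares 488 bases with *Gm17276* (4, 2, 0 and 0 counts), *Des* shares 220 bases with *Gm15179* (0 counts), and *Mcam* shares 17 bases with *Gm10687* (428, 531, 215 and 196 counts). The counts assigned to *Gm48529* were small beside the 451 to 2701 counts of *Tagln*. Those assigned to *Pcsk7* were above the 458 and 451 counts of *Tagln* in M9 and M10.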

How the data were processed

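Reads were aligned to mm10 by the authors with STAR and quantified with Salmon. The deposited values are raw counts, whole numbers for each Ensembl gene and library, with all 4 libraries in a single table. The submitters' processing notes name STAR 2.6.1d, Salmon 1.4.0, SAMtools 1.9, Picard 2.26 and MultiQC 1.11. How whole numbers were made from Salmon's estimates is not given in the sources used here. The labels describe paired reads on a NovaSeq instrument and, after the bead isolation of TAMs, RNA extraction from bone marrow-derived macrophages, while the study's methods describe single reads in triplicate. Libraries were grouped by the genotype label.

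Symbols, positions and exons were taken from GENCODE release M21 (GRCm38), which matched 54495 of the 54532 identifiers. Counts were analysed with R 4.3.3, edgeR 4.0.16 (filterByExpr, TMM factors of 1.22, 1.19, 0.876 and 0.787 for M7 to M10, glmQLFit and glmQLFTest) and limma 3.58.1, with Benjamini-Hochberg adjustment over 16451 genes and a threshold of 0.05. Alternatives were DESeq2 1.42.0 size factors and its Wald test, library size only, scaling to macrophage, pan-leukocyte or fibroblast markers, 2 other filters on low counts, omission of mitochondrial and rRNA-like genes, and each library left out. Scripts were tested on simulated data. Where both libraries of a genotype held 3 counts or fewer, the fold is a bound against 3 counts per library. Libraries of a genotype differed by more than sampling noise (chi-square per degree of freedom 36.8 in SYK WT and 128 in SYK KO).

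The 10 genes and the gene lists were chosen with earlier results of these data known. Named were all 10 genes and *Syk*, in each other list the gene highest per kilobase and the 3 or fewer that changed most at an adjusted p under 0.05, and the 3 genes nearest to *Acta2* and to *Rgs5*. *Myl9*, *Cox4i2*, *Fap*, *Dcn*, *Lum*, *Mertk*, *Dll1*, the marker genes at 0 counts and the overlapping genes were named outside this rule, after their values were seen. *Cox4i2* and *Mertk* are not among the 31 named genes whose calls are followed across settings below. Some genes that the rule names are not reported here.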

Additional observations from a re-analysis of the deposited data

How the results depend on the processing

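The scaling set most of what changed. In the order library size only, macrophage, pan-leukocyte and fibroblast scaling, the median of all genes moved by -0.53, -2.97, -3.61 and 1.07, the genes lower among all tested were 5411, 14529, 15270 and 540 (2747 with TMM), and those higher were 1677, 94, 55 and 9117 (3729 with TMM). Among the 4 related lists the lower genes were 38, 55, 55 and 5 (23 with TMM), and the higher genes 1, 0, 0 and 15 (5 with TMM). The mural genes lower were 7, 9, 9 and 3 (6 with TMM), and 6 under DESeq2, both filters on low counts and without mitochondrial and rRNA-like genes. *Syk* turned to -0.18 under macrophage and -0.83 under leukocyte scaling. *Cnn1* turned to -0.38, -2.82 and -3.47 in the first 3 scalings, and *Des* (0.64) and *Cspg4* (0.54) turned under fibroblast scaling.

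With each library left out in turn, 807 to 4745 genes were lower and 1478 to 5010 higher, the related lists gave 8 to 34 lower and 1 to 7 higher, and 6 to 7 mural genes were lower. *Cnn1* ran from -0.21 (without M9) to 0.41, being -0.08 without M8, and *Cspg4* from -1.41 (without M10) to 0.025 (without M9). When an arm kept a single library, that library was assumed to vary like the other genotype. As the median of log2 levels, the ratio to fibroblast markers moved from -0.33 to 0.017, and that to endothelial markers from -1.33 to -0.24. Of 31 genes named from the other lists and past the threshold, 17 no longer passed without M7, and 17 without M8, and 0 lost the call without M9 or without M10. The cause of these shifts beyond the scaling itself was not tested.

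No paired analysis was possible because the labels give no replicate numbers shared between genotypes.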
